A study of Mus musculus with 16 samples.

Results

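The transcripts of 42 genes of the RNA decay machinery were followed in mouse testis after conditional deletion of Ythdc2, whose product is a helicase and reader of methylated adenosine in RNA. The genes form a list of names set by their known role, and all 42 were found among the 55414 gene identifiers of the tables. They comprise 2 genes for 5'-3' exonucleases, 10 for the CCR4-NOT deadenylase, 3 for the PAN2-PAN3 and PARN deadenylases, 8 for decapping, 12 for the RNA exosome and the DIS3 family, and 7 for nonsense-mediated decay (NMD). RNA had been sequenced from whole testes at postnatal day 14 (P14) and 16 (P16), ages at which the most advanced germ cells are in meiotic prophase. Control mice (2 libraries at each stage), Cre control mice (2 at P14 and 4 at P16) and Ythdc2 conditional knockout (cKO) mice (3 at each stage) had all received tamoxifen at 10 mg per ml on days 12 and 13. Tamoxifen is used to activate an inducible Cre recombinase, which cuts out DNA between its target sites. The column names call the controls wild type, and the labels say no more about the alleles of either control type, the promoter that drives Cre or the pooling of animals. Nothing states that replicate libraries came from separate animals, so the p-values measure the spread between these libraries, which may be technical.

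A messenger RNA is usually destroyed in steps. Its poly(A) tail is shortened by PAN2-PAN3 and CCR4-NOT, after which either the cap is removed by the DCP2 complex and the body is digested from the 5' end by XRN1, or the body is digested from the 3' end by the exosome. Nonsense-mediated decay adds a quality check in which the UPF and SMG proteins direct transcripts with a premature stop codon into the same pathways. YTHDC2 is known to bind XRN1 and is needed for male germ cells to progress through meiosis.

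All libraries came from total RNA, but ribosomal RNA had been removed with 2 different kits. The controls and cKO libraries 1 and 2 of each stage were made with Ribo-Zero, and the Cre controls and cKO library 3 of each stage with NEBNext. Reads on genes ranged from 22220565 to 27531529 over the 8 Ribo-Zero libraries and from 14494867 to 23200252 over the 8 NEBNext libraries. Read numbers for single members ranged from 116 to 472 per library for Upf3b, the member with the fewest reads, and from 12515 to 25231 for Cnot1. The deleted gene was examined first, as a check of the labels. At P16, Ythdc2 (ENSMUSG00000034653) stood at normalised read counts of 2666 and 2609 in control libraries, against 502 and 541 in cKO libraries 1 and 2. Its log2 change was -2.34 ± 0.06 (SE) at P16 and -1.60 ± 0.09 at P14, where it had values of 2027 and 2262 in controls and of 658 and 753 in cKO. The cKO libraries made with NEBNext stood at 323 at P14 and 226 at P16, below every Cre control (1352 to 1454 and 1392 to 2633).

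Per kilobase of exon, the members differed widely in level. In the controls at P16, Xrn2, the mainly nuclear 5'-3' exonuclease, stood highest with a mean of 50.1 CPM (reads scaled to a common library size) per kb (49.9 and 50.4, n = 2), followed by the CCR4-NOT scaffold Cnot1 with 40.0 and the NMD helicase Upf1 with 37.0. The lowest levels were those of Upf3b (3.43), of the cytoplasmic 5'-3' exonuclease Xrn1 (3.19) and of Dis3l2 (2.60), which encodes a nuclease for uridylated RNA that works without the exosome. In the Cre controls at P16 the same 3 genes led in another order, with 85.0 ± 7.97 CPM per kb (SD, n = 4) for Upf1, 61.7 ± 4.30 for Cnot1 and 44.5 ± 2.05 for Xrn2. Upf3b (2.01 ± 0.143), Dis3l2 (3.32 ± 0.289) and Xrn1 (3.74 ± 0.382) were again the 3 lowest. Libraries of the same genotype and stage differed between the kits by up to a factor of 2.76 for single members. At P16, cKO library 3 held 2.76 times the mean of the other cKO libraries for Cnot3, 2.26 times for Edc3, 1.92 times for Upf1 and 0.415 times for Upf3b. A difference between libraries of different kits therefore holds the kit as well. By the run codes in the column names, the Ribo-Zero libraries share a sequencing run that no NEBNext library has. Kit and run thus cannot be told apart in such a difference.

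**Figure D1:**
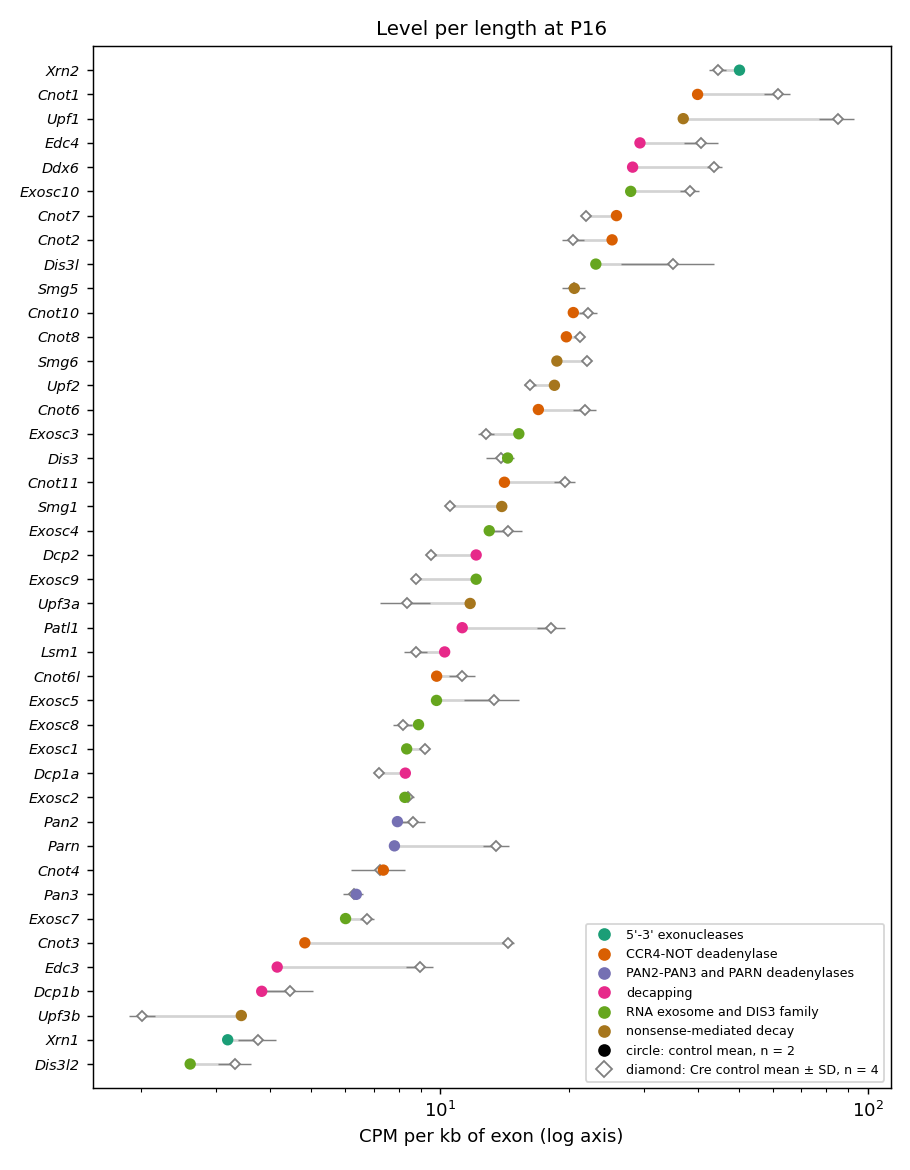
Level per length of the 42 genes at P16, as CPM per kb of exon on a log axis, with circles for the mean of 2 controls coloured by role and diamonds for the mean ± SD of 4 Cre controls made with the other kit. Xrn2, Cnot1 and Upf1 hold the top 3 places in both, and Cnot3 and Edc3 are among the genes with a wide gap between the kits.

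The promoter windows of 4 genes are shown because the results turn on them. Dis3, Exosc7 and Cnot3 had the 3 largest falls in the cKO testes at P16, and Dis3l had the largest change with age. Dis3 encodes the main catalytic subunit of the exosome, Exosc7 a subunit of its ring, Cnot3 a subunit of the NOT module of CCR4-NOT, and Dis3l the catalytic subunit of the cytoplasmic exosome. Each window runs from 250 bases before to 50 bases after a RefSeq start (mouse build GRCm38.p6), and capitals mark matches to the motifs searched. Dis3 is on the minus strand at chr14:99099721-99100020, Exosc7 on the plus strand at chr9:123112981-123113280, Cnot3 on the plus strand at chr7:3645019-3645318, and the upstream one of the Dis3l windows on the minus strand at chr9:64340724-64341023.
Dis3: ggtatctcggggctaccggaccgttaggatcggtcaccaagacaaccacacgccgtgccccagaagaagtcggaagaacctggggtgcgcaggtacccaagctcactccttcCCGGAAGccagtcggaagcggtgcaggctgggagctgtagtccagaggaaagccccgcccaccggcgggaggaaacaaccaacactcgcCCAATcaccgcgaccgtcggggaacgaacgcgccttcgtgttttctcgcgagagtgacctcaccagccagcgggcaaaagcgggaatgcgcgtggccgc
Exosc7: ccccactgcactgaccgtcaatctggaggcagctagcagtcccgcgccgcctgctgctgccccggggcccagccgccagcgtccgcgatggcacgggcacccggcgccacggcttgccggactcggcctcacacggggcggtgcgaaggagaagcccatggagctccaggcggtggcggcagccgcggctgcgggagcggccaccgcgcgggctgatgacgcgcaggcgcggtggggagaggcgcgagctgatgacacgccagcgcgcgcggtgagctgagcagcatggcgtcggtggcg
Cnot3: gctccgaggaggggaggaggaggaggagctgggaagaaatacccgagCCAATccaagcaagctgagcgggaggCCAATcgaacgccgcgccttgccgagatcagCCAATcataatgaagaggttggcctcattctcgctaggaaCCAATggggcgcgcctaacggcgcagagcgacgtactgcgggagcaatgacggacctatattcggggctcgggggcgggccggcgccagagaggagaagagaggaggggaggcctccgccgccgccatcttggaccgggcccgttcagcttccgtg
Dis3l: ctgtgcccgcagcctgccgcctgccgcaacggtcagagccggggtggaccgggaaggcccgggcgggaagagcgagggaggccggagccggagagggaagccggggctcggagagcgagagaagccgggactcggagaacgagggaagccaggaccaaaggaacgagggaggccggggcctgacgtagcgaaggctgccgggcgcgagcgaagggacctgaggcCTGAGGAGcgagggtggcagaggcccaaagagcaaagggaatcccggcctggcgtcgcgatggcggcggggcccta
The Dis3 window holds CCGGAAG, the core bound by ETS factors, and CCAAT, the box bound by NF-Y. Cnot3 holds 4 copies of CCAAT, Exosc7 holds none of the 6 motifs searched, and Dis3l holds CNCCTCAG, a motif given for the meiotic regulator STRA8, on the reverse strand. Among the 43 windows of the 35 members in the RefSeq table, 12 hold CCGGAAG (27.9%, against 8.86% of all 32851 windows) and 12 hold CCAAT (27.9% against 37.4%). CNCCTCAG was in 1 member window (2.33% against 7.94%), AACNGTT, the MYB core, in 1 (2.33% against 4.45%), and GCATGCGC, the NRF1 core, in 4 (9.3% against 2.71%). A longer form of the NRF1 core, with GC before it, was searched first and shortened after its counts were seen, and it was in 2 (4.65% against 0.971%). TGACGTCA, the cAMP response element, was in 0 member windows and in 1.79% of all windows. Both strands were searched, the longer NRF1 form holds the shorter, the matches in the printed windows do not overlap, and a match describes the letters only.

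The main question was how the decay genes stood in cKO testes at P16. Against controls, 19 of the 42 members passed the test (limma, adjusted p under 0.05), 6 of them higher and 13 lower in the cKO libraries. Of all 17986 genes tested, 38.6% passed (18.6% higher and 19.9% lower), so the members' share of 45.2% lay near the background. Changes were small, from -0.46 to 0.34 on the log2 scale, with a median of -0.08 over the members and -0.000495 over all genes. In the exosome list 4 of 12 genes fell and none rose, and 11 of 12 estimates were negative, with a median of -0.12, where 49.9% of all genes had a positive estimate.

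**Figure D2:**
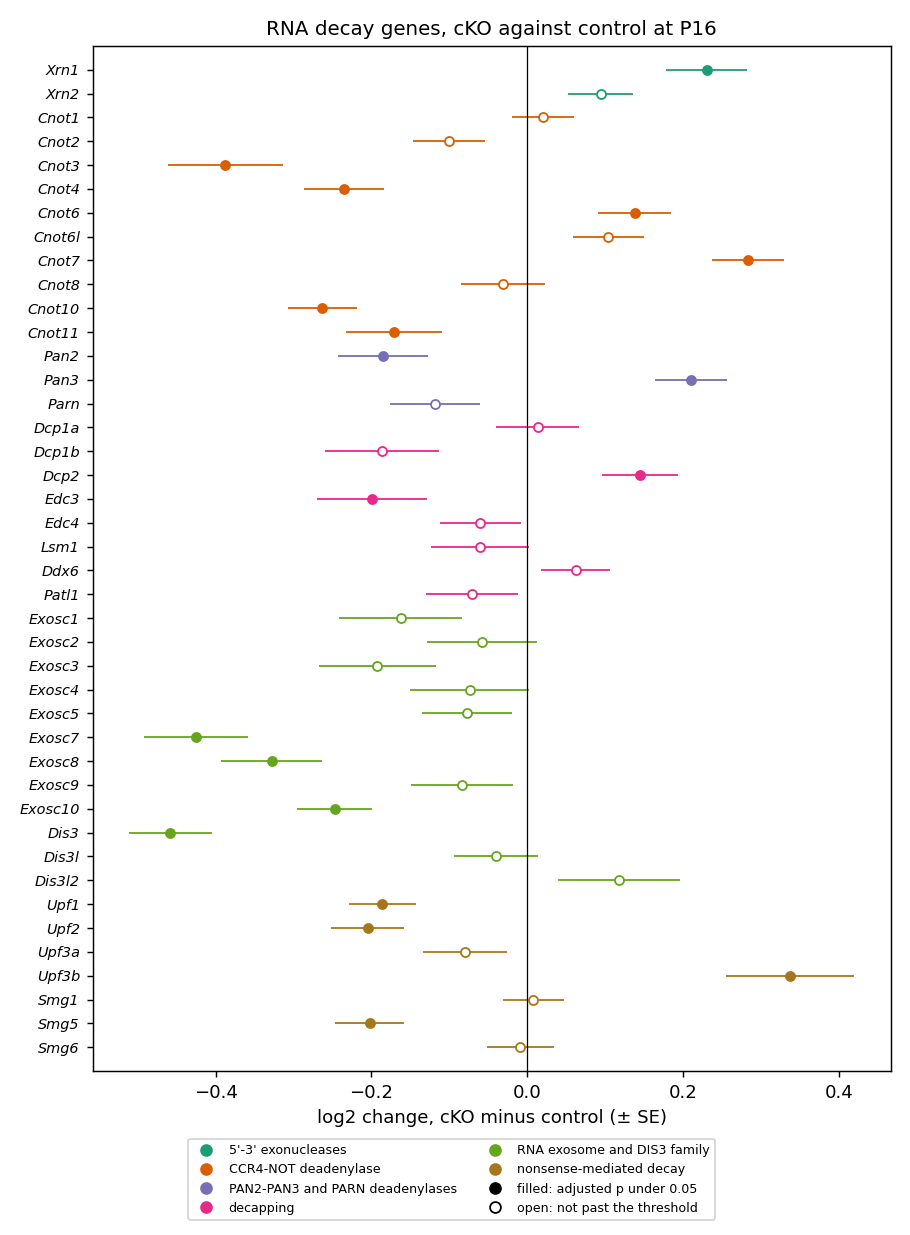
Log2 change (cKO minus control, ± SE) of the 42 genes at P16 in 2 control and 2 cKO Ribo-Zero libraries, in order of role. Filled points passed the test, with Dis3 lowest at -0.46 and Upf3b highest at 0.34.

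Both 5'-3' exonucleases had positive estimates, and that of Xrn1 passed the test. Xrn1 measured 1536 and 1539 in control libraries against 1761 and 1847 in cKO libraries. Both cKO libraries were above both controls, a rise of 0.23 ± 0.05 on the log2 scale (limma adjusted p = 0.00379). Xrn2 had values of 5165 and 5200 in controls and of 5442 and 5624 in cKO, a difference of 0.09 ± 0.04 that did not pass (limma adjusted p = 0.0921).

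The CCR4-NOT genes moved in both directions: 2 rose, 4 fell and 4 did not pass. Cnot3 measured 842 and 945 in control libraries against 706 and 658 in cKO libraries, so the groups did not overlap, and it fell by 0.39 ± 0.07 (limma adjusted p = 0.00133). Cnot10, which binds the CNOT1 scaffold together with CNOT11, stood at 3518 and 3525 in the controls against 2891 and 2978. Both cKO libraries were lower, and the gene fell by 0.26 ± 0.04 (limma adjusted p = 0.000554). Cnot4, a ubiquitin ligase of the complex (-0.24), and Cnot11 (-0.17) also fell. The catalytic subunits come in pairs of paralogs, and in neither pair did both genes pass. Cnot7, a catalytic deadenylase, had values of 4046 and 3768 in controls and of 4779 and 4727 in cKO. It was higher in both cKO libraries, by 0.28 ± 0.05 (limma adjusted p = 0.000447). Its paralog Cnot8 stood at 1358 and 1343 against 1334 and 1309, a difference of -0.03 ± 0.05 (limma adjusted p = 0.682). The Cnot7 to Cnot8 read ratio was 2.81 and 2.98 in the controls and 3.58 and 3.61 in the cKO libraries, with no overlap. Cnot6, of the other kind of catalytic subunit, measured 2862 and 2964 in control libraries against 3145 and 3266 in cKO libraries and rose by 0.14 ± 0.05 (limma adjusted p = 0.0323). Its paralog Cnot6l, at 2655 and 2601 against 2847 and 2803, was also higher in both cKO libraries but did not pass (0.10 ± 0.05, limma adjusted p = 0.0897). Whether the paralogs changed differently was not tested. Cnot1 and the NOT-module gene Cnot2 (0.02 and -0.10) did not pass.

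Of the other deadenylases, the partners of one enzyme went opposite ways. Pan3, the adaptor that brings the enzyme to its targets, had values of 2501 and 2444 in controls and of 2830 and 2892 in cKO. Its cKO values lay above its control values, and Pan3 rose by 0.21 ± 0.05 (limma adjusted p = 0.00314). Pan2, the catalytic subunit, stood at 1787 and 1709 against 1607 and 1471, lower in both cKO libraries, and fell by 0.18 ± 0.06 (limma adjusted p = 0.0232). Parn, a poly(A)-specific ribonuclease, did not pass (-0.12).

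Of the 8 decapping genes, 1 rose, 1 fell and 6 did not pass. Dcp2, the decapping enzyme, measured 2827 and 2660 in control libraries against 3074 and 2991 in cKO libraries. Both cKO libraries lay above the controls, and Dcp2 rose by 0.14 ± 0.05 (limma adjusted p = 0.0313). Edc3, an enhancer of decapping, was lower in both cKO libraries (619 and 634 against 541 and 550) and fell by 0.20 ± 0.07 (limma adjusted p = 0.0404), but 22.1% of its exon bases overlap Clk3 on the other strand, and the strand setting of the counting is not given in the sources used here. Of the DCP2 activators, Dcp1a had values of 1833 and 1711 in controls and of 1784 and 1791 in cKO, so that the groups overlapped (0.01 ± 0.05). Dcp1b stood at 623 and 636 against 533 and 575, lower in both cKO libraries, but its difference of -0.19 ± 0.07 did not pass (limma adjusted p = 0.0621). The helicase Ddx6 (0.06), the scaffold Edc4 (-0.06), Lsm1 of the LSM ring (-0.06) and the bridging factor Patl1 (-0.07) did not pass.

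Within the exosome and the DIS3 family, Dis3 had the largest fall of all 42 genes. It measured 2839 and 2954 in control libraries against 2020 and 2198 in cKO libraries, with no overlap, and fell by 0.46 ± 0.05, or 27.2% (limma adjusted p = 3.48e-05). Exosc7 had values of 915 and 961 in controls and of 673 and 724 in cKO and fell by 0.43 ± 0.07 (limma adjusted p = 0.000337). Exosc8, another ring subunit, stood at 977 and 1027 against 771 and 824 and fell by 0.33 ± 0.06 (limma adjusted p = 0.00162). In each of these genes both cKO libraries were below both controls. Exosc10, the nuclear exonuclease bound to the exosome, measured 2652 and 2557 in control libraries against 2168 and 2220 in cKO libraries, again without overlap, and fell by 0.25 ± 0.05 (limma adjusted p = 0.00142). The cap subunits Exosc1, Exosc2 and Exosc3 and the ring subunits Exosc4, Exosc5 and Exosc9 had estimates from -0.19 to -0.06, and none passed. The paralogs of Dis3 did not pass either. Dis3l had values of 3162 and 3393 in controls and of 3053 and 3324 in cKO, with the groups overlapping and a difference of -0.04 ± 0.05 (limma adjusted p = 0.591). Dis3l2 stood at 564 and 639 against 667 and 637, also overlapping, with a difference of 0.12 ± 0.08 (limma adjusted p = 0.261). Overlaps with genes on the other strand cover 4.19% of the exon bases of Dis3 (Pibf1), 2.05% of Exosc8 (Supt20), 6.07% of Cnot3 (Leng1), 19.8% of Exosc4 (Oplah), 12.4% of Exosc2 (Gm13427) and 10.8% of Exosc9 (Ccna2). The Dis3 to Dis3l read ratio was 0.870 and 0.898 in the controls against 0.661 and 0.662 in the cKO libraries. In the NEBNext libraries of P16 the ratio was not lower: cKO library 3 had 0.661, within the Cre control range of 0.447 to 0.852 (mean 0.592).

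Among the NMD genes 1 rose, 3 fell and 3 did not pass. Upf3b, an X-linked gene for a protein that joins the exon junction complex to UPF2, measured 358 and 354 in control libraries against 458 and 442 in cKO libraries. It was higher in both cKO libraries, by 0.34 ± 0.08 (limma adjusted p = 0.00609). Its autosomal paralog Upf3a stood at 1736 and 1844 against 1658 and 1729, lower in both, but its difference of -0.08 ± 0.05 did not pass (limma adjusted p = 0.27). The Upf3a to Upf3b read ratio was 4.84 and 5.22 in the controls and 3.62 and 3.91 in the cKO libraries. Upf1 (-0.19), the UPF1 partner Upf2 (-0.20) and Smg5 (-0.20), an adaptor that reads phosphorylated UPF1, fell. The UPF1 kinase Smg1 (0.01) and the endonuclease Smg6 (-0.01) did not pass.

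Calls at P16 rested on few libraries. When each library was left out in turn, 9 of the 19 genes passed every time: Dis3, Exosc7, Cnot3, Exosc8, Cnot10, Exosc10, Cnot7, Upf3b and Xrn1. The other 10 lost the call at least once (limma adjusted p from 0.0523 to 0.304), and without control library 1 the count was 10. The test borrows the spread from genes of like level, and without that trend only Dis3 passed (limma adjusted p = 0.0491), with Upf3b and Exosc7 at 0.0509.

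Of the other genes of the decay pathway, 91 of the 94 listed were tested in the same comparison, and 17 were higher and 33 lower in the cKO libraries, where 18.6% and 19.9% of all genes were. Their median was -0.11, against -0.000495 over all genes, and no test of the list was made. The called genes with the largest falls were Nanos3, a germ cell RNA-binding protein (-0.72 ± 0.24), Patl2, an oocyte relative of Patl1 (-0.67 ± 0.19), and Dxo, a nuclease for faulty caps (-0.61 ± 0.06). Nanos3 is also in the list of spermatogonia markers used here. Its values were low, at 56.1 and 62.4 in controls and 29.1 and 43.5 in cKO libraries. The largest rises were those of Mex3b, an RNA-binding ubiquitin ligase (0.41 ± 0.08), Limd1, a P-body adaptor (0.36 ± 0.06), and Btg1, an activator of the CAF1 deadenylases that Cnot7 and Cnot8 encode (0.36 ± 0.06).

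Cell type markers also changed between these groups. Markers of spermatogonia were lower for 8 of 10 genes and higher for 1, with summed levels of 807 to 821 CPM in the controls and 627 to 628 in the cKO libraries, and markers of early meiotic prophase were lower for 11 of 12 (3203 to 3305 against 2346 to 2542). Markers of pachytene and later spermatocytes were higher for 6 of 14 and lower for 2 (2227 to 2273 against 2430 to 2748). Higher calls were also found for 8 of 11 Sertoli cell markers (1824 to 1834 against 2128 to 2342), 7 of 8 macrophage markers (71.2 to 75.1 against 109.9 to 115.2), 4 of 8 Leydig cell markers (267 to 277 against 316 to 356), 3 of 8 peritubular and stromal markers (792 to 856 against 997 to 1030) and 2 of 6 endothelial and red blood cell markers (122 to 133 against 133 to 159), and none of these was lower. The Leydig cell marker Insl3 had 0 reads in both cKO libraries, as it had in all 4 Cre controls and the NEBNext cKO library of P16. In that NEBNext cKO library, the summed levels of spermatogonia (853 CPM), early prophase (1664), pachytene (1968), Sertoli (2640), Leydig (375) and endothelial and red blood cell markers (165) lay within those of the Cre controls (708 to 893, 1598 to 2231, 1824 to 3274, 2101 to 2700, 322 to 402 and 110 to 245). Its macrophage (115 against 83.6 to 110.8) and peritubular and stromal markers (973 against 631 to 908) lay above them. In bulk RNA, fewer cells of a type and less RNA per cell cannot be told apart, and the part of these shifts in the members' changes was not tested.

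The third cKO library at P16, made with NEBNext, shares no library with that comparison and was set against the 4 Cre controls of its own kit. By the run codes in the column names, only Cre control library 1 was sequenced in the same run as this cKO library. Cre control libraries 2, 3 and 4 came from another run, so a difference from them holds the run as well. With a single library there is no test. Of the 19 called members, 18 differed from the Cre control mean in the same direction, namely all 13 that were lower and 5 of the 6 that were higher, where 81.7% of the 6895 called genes measured in both did so. The exception was Upf3b, at 154 against 148, 174, 155 and 159. Exosc7 stood at 552 in the cKO library and at 762, 808, 841 and 791 in the Cre controls. Dis3 stood at 1668 against 2139, 1963, 2037 and 2341, and Cnot3 at 1547 against 2060, 1988, 1974 and 2104. All of these cKO values lay below every Cre control. Xrn1 stood at 1612 in the cKO library against 1344, 1326, 1251 and 1573, Pan3 at 2221 against 1847, 1985, 1787 and 1790, and Cnot7 at 2786 against 2489, 2578, 2505 and 2499. These cKO values lay above every Cre control. Besides Upf3b, the called members Exosc8 (672 against 653 to 728), Cnot4 (1282 against 1206 to 1661) and Edc3 (1012 against 945 to 1123) were neither below nor above all Cre controls. Over all 42 members, 9 lay above and 20 below the range of the Cre controls, 29 in all, where 54.0% of all genes lay outside that range (24.0% above and 30.0% below). At P14 the third cKO library lay above both Cre controls for 2 members and below both for 20, against 26.9% and 33.3% of all genes, or 60.2% in all.

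**Figure D3:**
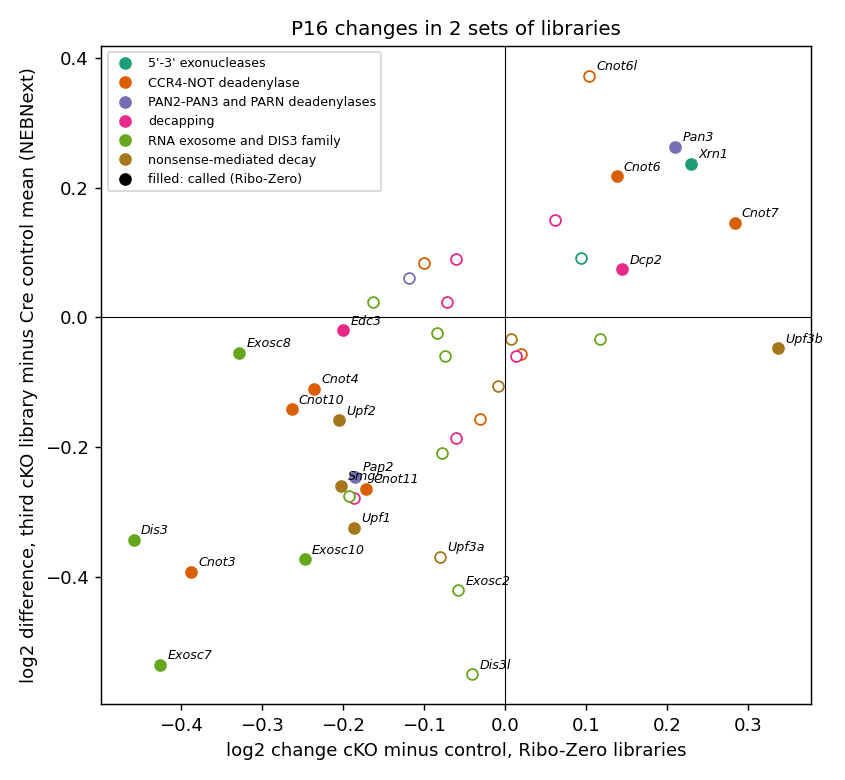
Log2 change of the 42 genes at P16 in the Ribo-Zero libraries (x axis) against the log2 difference of the third cKO library from the mean of 4 Cre controls in the NEBNext libraries (y axis, 1 cKO library, no error). Of the 19 filled (called) genes, 18 have the same sign on both axes, and Upf3b is the exception.

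The deposited comparison with Cre controls holds all 3 cKO libraries, of which 2 differ from every Cre control in kit. At P16, 6 members passed (limma): Pan3 was higher and Cnot3, Upf1, Exosc10, Exosc7 and Cnot11 were lower, against 9.07% of all 19200 genes tested (4.3% higher and 4.77% lower). Cnot3 stood at 1974 to 2104 in the Cre controls, at 579 and 542 in the Ribo-Zero cKO libraries and at 1547 in the NEBNext one. It had a log2 change of -1.37 ± 0.34, and its cKO libraries made with different kits lay further apart than the NEBNext cKO library and the Cre controls. Upf1, at 6865 to 8643 in the Cre controls, 3149 and 3267 in the Ribo-Zero cKO libraries and 6173 in the NEBNext one (-0.95 ± 0.23), had the same pattern. Cnot11 stood at 1253 to 1435 in the Cre controls, 890 and 992 in the Ribo-Zero cKO libraries and 1128 in the NEBNext one, and was lower in all 3 (-0.44 ± 0.10). Exosc7, at 552 and 597 with Ribo-Zero and 552 with NEBNext, was below every Cre control in all 3 cKO libraries (-0.50 ± 0.08). Exosc10 stood at 1776, 1830 and 2099 against 2511 to 2832 (-0.52 ± 0.09), with all 3 cKO libraries lower. Pan3 stood at 2318, 2384 and 2221 against 1787 to 1985 (0.32 ± 0.07), with all 3 higher. None of the 6 passed with the kit as a covariate (0 of 42, limma, and 1 of all genes), nor without the trend (32 of all genes). They also did not pass when any one of the 4 Cre control libraries or cKO library 1 or 2 was left out (limma adjusted p from 0.072 to 0.201). In each of those fits 0 of all genes passed. Without cKO library 3 the count was 25, against 49.5% of all genes. A fit over both control types at P16 with the kit as a covariate called 9 members, all of them among the 19, against 13.6% of all genes. These were Exosc7 (-0.47), Dis3 (-0.40), Cnot3 (-0.38), Exosc10 (-0.29), Upf1 (-0.24), Smg5 (-0.22), Cnot10 (-0.20), Pan3 (0.24) and Cnot7 (0.23). Xrn1 kept its size there (0.24) and did not pass (limma adjusted p = 0.0639). Exosc8 (-0.20, limma adjusted p = 0.125) and Upf3b (0.17, limma adjusted p = 0.321) had smaller estimates than against controls alone and did not pass either.

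At P14 no member passed against controls (0 of 42 by limma, and 0 at an unadjusted p under 0.05, which 2.37% of all genes had), and neither did any by DESeq2 or edgeR. Ythdc2 itself was the 1 gene that passed, which is 0.00579% of the 17270 tested, and it lost the call without either control library (limma adjusted p = 0.0674 and 0.261). Members differed by -0.15 to 0.18, with a median of -0.00350 against 0.00897 over all genes. Dis3 had values of 2757 and 2744 in controls and of 2529 and 2586 in cKO, lower in both (-0.10 ± 0.05). Exosc7 stood at 769 and 775 against 813 and 824, higher in both (0.08 ± 0.07). Xrn1 stood at 1603 and 1662 against 1620 and 1574, with the groups overlapping. Against Cre controls at P14 no member passed (0 of 42, against 0% of 18196 genes), 1 did at an unadjusted p under 0.05 (3.87% of all genes), and DESeq2 and edgeR called 0. Without cKO library 3, where kit and genotype cannot be told apart, the count was 18, against 34.9% of all genes.

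An interaction term, fitted to log2 CPM of the 8 Ribo-Zero libraries, compared the cKO effect at P16 with that at P14. It passed for 3 members, 1 positive and 2 negative, against 7.39% of 18581 genes (2.9% and 4.49%). For Exosc7 the effect at P16 minus that at P14 was -0.49 ± 0.09 (limma adjusted p = 0.0175). Its CPM values were 32.0 and 32.1 in the controls and 33.7 and 34.1 in the cKO libraries at P14, then 35.2 and 37.1 against 26.0 and 28.3 at P16, so the order of the groups turned. In the NEBNext libraries of P14, Exosc7 stood at 612 in cKO library 3 and at 762 and 619 in the Cre controls, so cKO was not higher there. Dis3 had a difference of -0.34 ± 0.08 (limma adjusted p = 0.034), with 115 and 114 CPM in the controls against 105 and 107 at P14 and 109 and 114 against 77.9 and 86.0 at P16. It was lower in the cKO libraries at both stages, by more at P16. Pan3 had a difference of 0.27 ± 0.07 (limma adjusted p = 0.0401), with 97.2 and 99.7 CPM against 93.7 and 96.6 at P14 and 96.3 and 94.2 against 109 and 113 at P16. Upf3b had a numerically larger one that did not pass (0.50 ± 0.14, limma adjusted p = 0.0564), as did Xrn1 (0.28 ± 0.07, limma adjusted p = 0.0546). These 3 calls were fragile. The count was 0 without control library 1 or 2 of either stage or cKO library 1 of P16 and 8 without cKO library 1 of P14, and Pan3 lost its call also without that library and without cKO library 2 of P16 (limma adjusted p from 0.0509 to 0.16 over all lost calls).

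**Figure D4:**
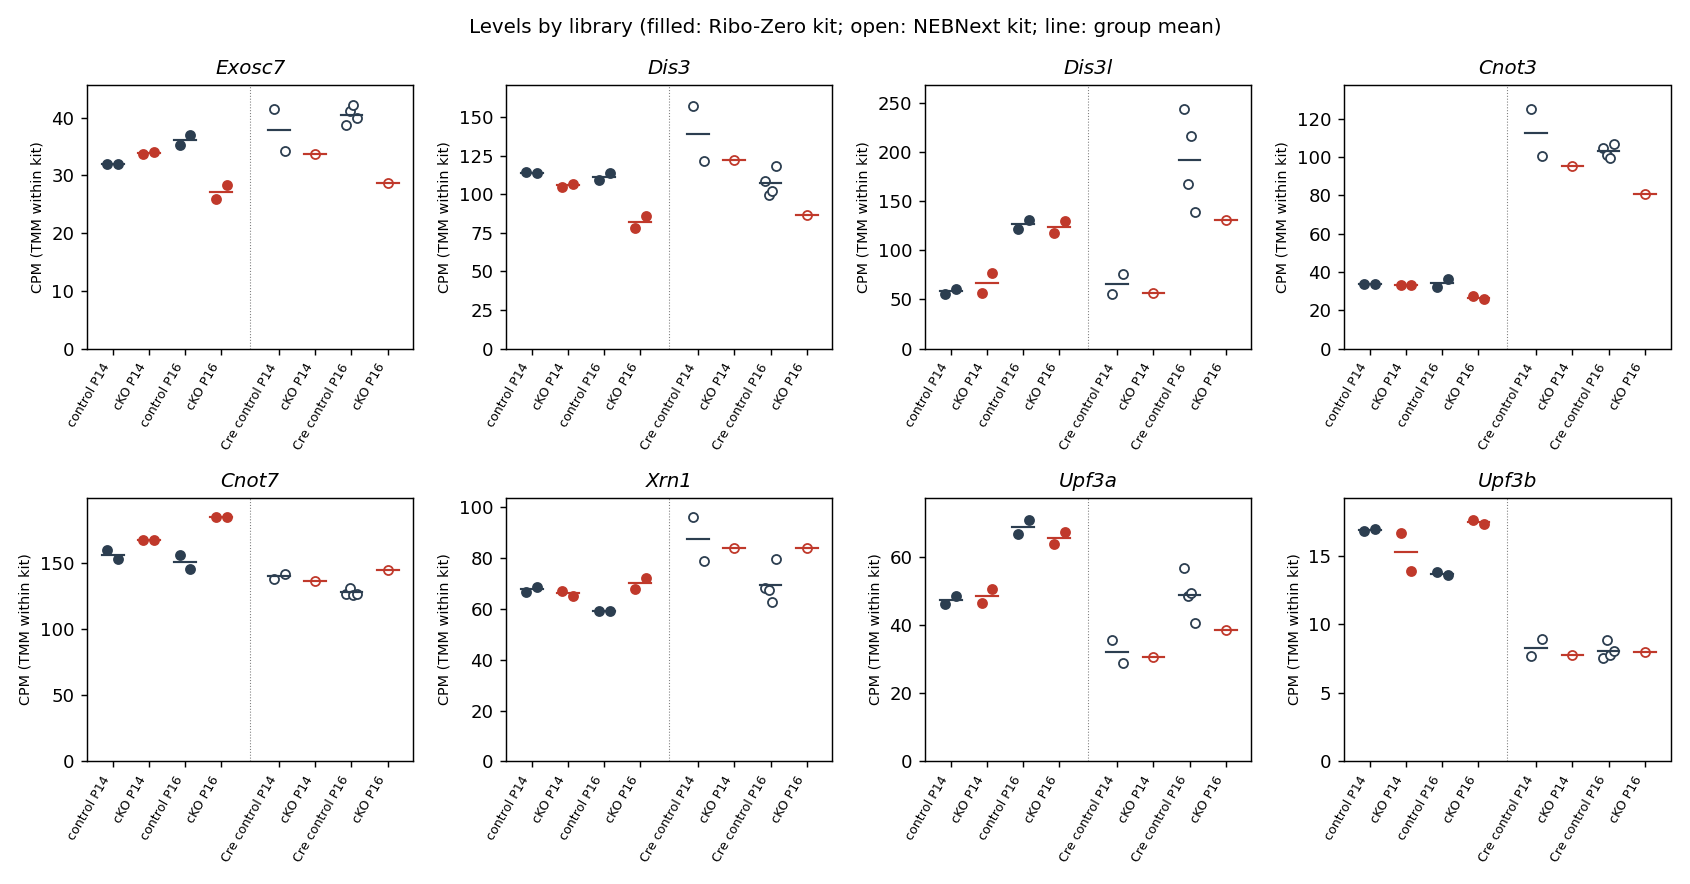
CPM of 8 decay genes in each of the 16 libraries, scaled by TMM within a kit, with filled points for Ribo-Zero, open points for NEBNext, lines for group means and red for cKO. Exosc7, Dis3 and Cnot3 are lower in cKO at P16 in both kits, Dis3l and Upf3a are higher at P16 than at P14 in every group, and the levels of Cnot3 and Upf3b differ between the kits.

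A few members changed between the stages by more than any did between cKO and control in the Ribo-Zero libraries. The stage changes are on log2 CPM and the cKO changes on log2(value + 1). Larger estimates against Cre controls at P16, such as -1.37 for Cnot3, come from a comparison that mixes kits. Between P14 and P16, 11 members passed in the controls, 9 of them higher and 2 lower at P16, against 20.0% of all genes (13.3% higher and 6.67% lower). In the Cre controls 7 passed, 6 higher and 1 lower, against 11.8% of all genes (9.06% higher and 2.75% lower). By the run codes in the column names, both Cre control libraries of P14 share a sequencing run with library 1 of P16. Cre control libraries 2, 3 and 4 of P16 came from another run. A stage difference in the Cre controls therefore holds the run as well. The 2 sets share no library and no kit. They shared 6 members called in the same direction, 54.5% of the calls in controls and 85.7% of those in Cre controls, where the figures over all genes were 43.2% and 71.3%. All 6 were higher at P16: Dis3l, Upf3a, Exosc5, Smg5, Upf1 and Dcp1b, the last with a call in the Cre controls that most alternatives did not keep.

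**Figure D5:**
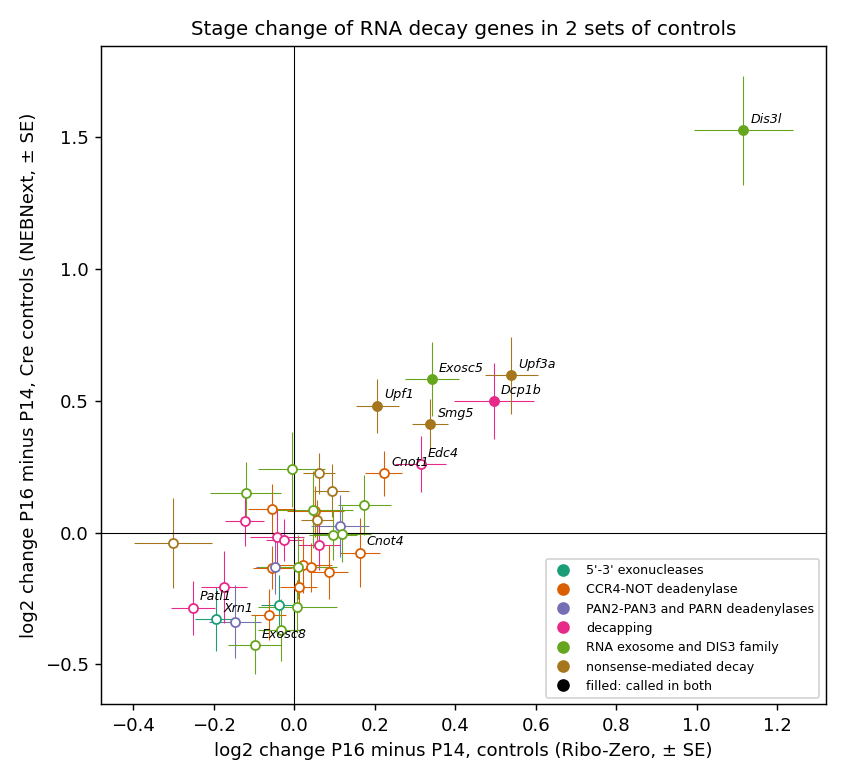
Log2 change from P14 to P16 (± SE) of the 42 genes in controls (x axis, 2 libraries at each stage) and in Cre controls (y axis, 2 and 4 libraries). Filled points passed in both sets, and Dis3l stands apart at 1.12 and 1.53.

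Dis3l rose most. Its level was 55.6 and 61 CPM at P14 and 122 and 131 at P16 in the controls, and 55.5 and 75.8 at P14 and 244, 167, 216 and 139 at P16 in the Cre controls. Every P16 library lay above every P14 library in both sets, and the log2 change was 1.12 ± 0.12 in controls (limma adjusted p = 0.00035) and 1.53 ± 0.21 in Cre controls (limma adjusted p = 0.00134). In the cKO libraries Dis3l rose too, from 56.5 and 77.3 to 118 and 130 CPM, without overlap, by 0.90 ± 0.12 (limma adjusted p = 0.000575). The third cKO library stood at 56.7 CPM at P14 and at 131 at P16, below the lowest Cre control of 139 at P16. Dis3 did not rise with it, at 115 and 114 CPM at P14 and 109 and 114 at P16 in the controls (-0.03 ± 0.06, limma adjusted p = 0.722). Per kb of exon, the order of the paralogs in the controls turned, from 10.7 for Dis3l against 14.7 for Dis3 at P14 to 23.1 against 14.4 at P16. It also turned in the Cre controls, from 12 against 18.0 to 35.1 against 13.8. Dis3l2 stood at 24.6 and 20.4 CPM at P14 and at 21.7 and 24.6 at P16 in the controls, with the stages overlapping (0.05 ± 0.10).

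Upf3a rose from 46.3 and 48.5 CPM to 66.8 and 71.1 in the controls, without overlap, by 0.54 ± 0.06 (limma adjusted p = 0.00047). It rose in the Cre controls from 35.9 and 28.8 to 56.8, 48.8, 49.6 and 40.8 CPM, by 0.60 ± 0.15 (limma adjusted p = 0.0254). It rose in the cKO libraries as well, from 46.5 and 50.8 to 63.9 and 67.6 CPM (0.44 ± 0.06, limma adjusted p = 0.000955). All P16 libraries were above all P14 libraries in each set. Upf3b stood at 16.8 and 17.0 CPM at P14 and at 13.8 and 13.6 at P16 in the controls, lower in both P16 libraries, with a difference of -0.30 ± 0.10 that just missed the threshold (limma adjusted p = 0.0546). In the Cre controls Upf3b overlapped between the stages (-0.04 ± 0.17). The mean Upf3a to Upf3b read ratio went from 2.81 to 5.03 in the controls and from 3.96 to 6.12 in the Cre controls.

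The other NMD genes that rose with age were Smg5 and Upf1. Smg5 stood at 113 and 114 CPM at P14 and 145 and 141 at P16 in the controls, all P16 values being higher, and rose by 0.34 ± 0.04 (limma adjusted p = 0.000752). Smg5 in the Cre controls went from 113 and 102 to 150, 140, 150 and 132 CPM (0.41 ± 0.09, limma adjusted p = 0.0197), also without overlap. Upf1 rose by 0.21 ± 0.05 in controls, from 145 and 151 to 173 and 169 CPM (limma adjusted p = 0.0243). Its values in the Cre controls were 263 and 298 at P14 and 406, 383, 435 and 347 at P16, well separated (0.48 ± 0.10, limma adjusted p = 0.0133). In the cKO libraries Smg5 rose less, by 0.17 ± 0.04 (limma adjusted p = 0.0186), and Upf1 did not pass (0.02 ± 0.05). The interaction did not pass for either (-0.17 and -0.19, limma adjusted p = 0.128 and 0.156).

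In the exosome, the ring gene Exosc5 rose in the controls from 48.6 and 48.4 to 62.5 and 60.5 CPM (0.34 ± 0.07, limma adjusted p = 0.00651). The Cre controls went from 51.3 and 59.5 to 89.0, 83.0, 95.5 and 67.0 CPM (0.58 ± 0.14, limma adjusted p = 0.024). Stages did not overlap in either set. Exosc8 was lower at P16 in the Cre controls, from 51.0 and 44.2 to 36.8, 33.2, 34.8 and 36.9 CPM (-0.43 ± 0.11, limma adjusted p = 0.0343), and did not pass in the controls (-0.10 ± 0.06). Of the decapping genes, Dcp1b rose from 15.8 and 18.7 to 24.0 and 24.5 CPM in the controls (0.50 ± 0.10, limma adjusted p = 0.00685). Its values in the Cre controls were 19.9 and 19.6 at P14 against 31.9, 27.0, 30.3 and 23.5 at P16 (0.50 ± 0.14, limma adjusted p = 0.0495). This Dcp1b call held in 3 of 16 alternatives and was lost with other prior counts, size factors or edgeR and without 5 of the 6 libraries, each in turn (adjusted p from 0.0167 to 0.223 over all 16). Its paralog Dcp1a did not pass in either set (0.06 and -0.05). Edc4 rose in the controls from 127 and 133 to 168 and 155 CPM (0.31 ± 0.06, limma adjusted p = 0.00738), and did not pass in the Cre controls (0.26 ± 0.11). Part of Edc4 (8.33% of its exon bases) overlaps Nrn1l on the same strand. Patl1 fell in the controls from 57.0 and 58.1 to 48.2 and 48.4 CPM (-0.25 ± 0.05, limma adjusted p = 0.0106), and Xrn1 from 66.7 and 68.8 to 59.1 and 59.3 (-0.19 ± 0.05, limma adjusted p = 0.0292). Neither passed in the Cre controls (-0.29 ± 0.10 and -0.33 ± 0.12). Cnot1 (0.22) and Cnot4 (0.16) were the CCR4-NOT genes that rose in the controls, and no deadenylase gene of PAN2-PAN3 or Parn passed.

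In cKO testes, 16 members passed between P14 and P16, 8 in each direction, against 29.8% of all genes. Besides Dis3l, Upf3a and Smg5, the rises were those of Edc4 (0.24), Cnot1 (0.23), Pan3 (0.22), Exosc5 (0.21) and Cnot7 (0.15). Dis3 fell from 105 and 107 to 77.9 and 86.0 CPM, Exosc7 from 33.7 and 34.1 to 26.0 and 28.3, and Cnot3 from 33.1 and 33.0 to 27.2 and 25.7. In each of these genes both P16 libraries were lower, with log2 changes of -0.37, -0.32 and -0.32 ± 0.06, 0.07 and 0.07. Exosc8 fell from 37.4 and 38.1 to 29.7 and 32.2 CPM, Lsm1 from 37.0 and 37.2 to 30.3 and 31.0, and Parn from 48.3 and 43.6 to 39.4 and 38.8. All P16 values of these genes, too, were below the P14 values, and Patl1 (-0.21) and Edc3 (-0.20) fell as well.

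Markers of pachytene and later spermatocytes moved with age in both sets, with 13 of 14 higher in the controls and 12 of 14 in the Cre controls. Their summed level was 985 to 1089 CPM at P14 and 2227 to 2273 at P16 in the controls, and 713 to 959 and 1824 to 3274 in the Cre controls. In the controls, 7 of 8 macrophage, 7 of 8 peritubular and stromal and 5 of 11 Sertoli cell markers were lower at P16, against 6.67% of all genes. In the Cre controls the summed Sertoli level overlapped between the stages (2292 to 2379 CPM at P14 and 2101 to 2700 at P16). Summed macrophage (111.1 to 116.5, then 83.6 to 110.8) and peritubular and stromal levels (1003 to 1468, then 631 to 908) were lower at P16 there. The part of these shifts in the members' changes was not tested. Calls with age also depended on single libraries. Dis3l, Upf3a and Smg5 passed in the controls with every library left out, and Dis3l alone did so in the Cre controls. The count in controls was 5 and 7 without control library 1 or 2 of P14 and 4 and 5 without library 1 or 2 of P16, with lost calls at limma adjusted p from 0.0528 to 0.236. In the Cre controls it was 1 without library 1 of P14, 7 without library 2 of P14, and 6, 3, 1 and 10 without libraries 1 to 4 of P16 (lost calls at 0.0556 to 0.261), and within the sequencing run that holds both stages it was 2. In cKO testes Cnot1, Dis3, Dis3l, Exosc7, Lsm1 and Upf3a passed every time, and the count was 7 without library 2 of P16.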

How the data were processed

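RNA from 16 testis libraries was analysed. The authors deposited 4 tables, 1 for each stage and control type, that hold a signal, namely gene counts scaled within the table by the size factor of each library, per the file headers and values. The submitters' processing notes name Trim Galore, STAR, HTSeq, DESeq2 and the build GRCm39 (mm39), without roles, and versions are not given in the sources used here. In all 20 columns, 100% of values were whole multiples of 1 read (tolerance 0.01 reads), so read counts were recovered. The 4 summary rows that name no gene were left out. Unmapped reads, 1 of these rows, made up 18.1% to 21.8% of the Ribo-Zero and 30.7% to 41.1% of the NEBNext libraries.

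GENCODE M21 named 52133 of 55414 identifiers and gave exon lengths and overlaps. Its build differs from that in the notes, so gene coordinates are not given, and promoter windows carry the build of their RefSeq table. The members and lists (94 other decay genes, 8 lists of cell type markers) were chosen with earlier results of these data known.

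Within a table, limma 3.58.1 (lmFit, eBayes with trend, R 4.3.3) was run on log2(value + 1) for genes reaching a value of 10 in 2 or more libraries, a scale on which changes of low genes are understated. Contrasts between stages used log2 CPM (TMM, prior count 1) of recovered reads, in 1 fit of the 8 Ribo-Zero libraries or in the 6 Cre controls. P-values were adjusted by Benjamini-Hochberg over all genes tested, with a threshold of 0.05. All 42 members passed the filter in each comparison. Values by library are given mainly for Ythdc2, Xrn1, Xrn2, the paralogs and the called members with the largest log2 changes. Of the latter, up to 6 with the most positive and up to 6 with the most negative changes were chosen per comparison. For some of these genes, only ranges or log2 changes are given. edgeR 4.0.16 (quasi-likelihood) and DESeq2 1.42.0 on recovered reads, other pseudocounts, filters and scalings, a fit without trend, a block for the replicate number, a covariate for the kit, both control types in 1 fit, and leaving out each library were alternatives. The fits were also run on simulated data with the same spread setting for every gene. Such data cannot show how the fits behave under the spread of the real libraries. Between cKO and control at P16, edgeR called 6983 genes on recovered reads and limma 6939 on the deposited values.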

Additional observations from a re-analysis of the deposited data

Results flagged for a closer look

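3 members had a cKO effect that differed between the stages by the interaction test (limma): Exosc7 by -0.49, Dis3 by -0.34 and Pan3 by 0.27 on the log2 scale, each as the effect at P16 minus that at P14. Their values by library stand in the account of that comparison. Among the 4 Cre controls at P16, 1 member of the 42 tested had a library far from the others: Exosc2 stood at 505.1 in library 3 and at 471.7 to 472.5 in the others, a gap of 0.974 of the whole range. The test marks about 1 group in 20 by chance.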

How the results depend on the processing

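No estimate of a called member changed sign under any alternative run. Against controls at P16 the count of 19 members was 1 without the trend of the spread, 9 with both control types and the kit as a covariate, and 10 to 18 with a library left out. Against Cre controls at P16 the count of 6 was 2 with no filter, 14 by DESeq2, 0 without the trend, 0 with the replicate block, 0 with the kit as a covariate, and 0 to 25 with a library left out. Against Cre controls at P14 the count of 0 was 20 with the replicate block and 0 to 18 with a library left out, where cKO library 3 has no Cre control of its number or is itself left out. Against controls at P14 it was 0 throughout. Between stages, the count of 11 in controls was 5 without the trend and 4 to 7 with a library left out. That of 16 in cKO was 9 and 7 to 16, and that of 7 in Cre controls was 1 and 1 to 10, with 4 under the replicate block and 2 in the run that holds both stages. The interaction's 3 became 5 with a minimum of 50 reads, 0 without the trend, 6 with the replicate block and 0 to 8 with a library left out. Where leaving out a library left 1 in a group, that library was assumed to vary like the others. The causes of these moves in the counts were not tested.

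Counts over all genes moved too. Against controls at P16, 6939 became 1806 without the trend, 2701 with both control types and 4591 to 7045 with a library left out. Against controls at P14, 1 became 6 by DESeq2, 5 with the replicate block, 0 with no filter or without the trend and 0 to 11 with a library left out. Against Cre controls at P16, 1741 became 3277 with a pseudocount of 10, 917 with no filter, 4188 by DESeq2, 32 without the trend, 0 with the block, 1 with the kit as a covariate, 2701 with both control types and 0 to 9427 with a library left out. At P14, 0 became 5 by DESeq2, 1 with both control types, 6966 with the block and 0 to 6256. Between stages, 3714 in controls became 2166 without the trend and 1640 to 2613, 5533 in cKO became 3445 to 5451, and 2223 in Cre controls became 903 without the trend, 1059 in the run with both stages and 551 to 2777. The interaction's 1373 became 727 with no filter, 135 without the trend, 2228 with the block and 284 to 3199.

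The labels do not say whether replicate numbers pair the samples, and the correlations given next cannot settle it with so few libraries in a group. Same-numbered libraries deviated from their group means with a correlation of 0.0798 against controls at P16, 0.203 against controls at P14, and from -0.0704 to 0.304 and -0.233 to 0.242 against Cre controls at P16 and P14. With the number as a block, 22 members passed against controls at P16, 0 against controls at P14, 12 between stages in controls and 19 in cKO. With 2 libraries a group, differences such as 0.09 ± 0.04 for Xrn2 and 0.10 ± 0.05 for Cnot6l at P16 did not pass, so changes of that size are beyond what these data resolve.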
